A study of Mus musculus with 8 samples.

Results

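The 10 genes described here encode the enzymes, adaptors and kinases that carry a K63-linked ubiquitin signal to the IκB kinase (IKK) complex: Ube2v1, Ube2n, Traf6, Map3k7, Tab1, Tab2, Tab3, Chuk, Ikbkb and Ikbkg. They are 10 of the 54146 genes with values in each library. Ube2v1 was chosen by its RNA level, which was lower in GSTM1 KD than in control KD astrocytes, so its difference between those groups is given as a description, with no test. The 9 partners were named for their place in the same pathway, with earlier results of these data known, and were tested in fits over all genes.

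RNA was sequenced from primary cortical astrocytes of C57BL/6 mouse pups in 4 groups with 2 biological replicates each. Control KD cells carried a non-silencing short hairpin RNA (shRNA), and GSTM1 KD cells carried an shRNA against Gstm1, a glutathione S-transferase of the mu class. Each was collected at the basal level or after 6 h with TNF-α at 50 ng/ml, and the question was how loss of GSTM1 changes transcription in each state and the answer to TNF-α. All groups shared lentiviral infection of mixed glia, puromycin selection and removal of CD11b-positive microglia before plating. The labels name the knockdown only as shGstm1 and do not say how many hairpin sequences were used.

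K63-linked chains are built on target proteins by the ubiquitin-conjugating enzyme UBC13 (Ube2n), which needs a catalytically inactive partner, UEV1A (Ube2v1) or MMS2 (Ube2v2), to choose lysine 63. With the ligase TRAF6 this pair makes the chains that the zinc fingers of TAB2 and TAB3 bind, which brings the kinase TAK1 (Map3k7) and its activator TAB1 to the signal. TAK1 then phosphorylates IKKβ (Ikbkb), which with IKKα (Chuk) and the scaffold NEMO (Ikbkg) forms the IKK complex that marks IκB for destruction and frees NF-κB. After a TNF receptor is engaged, astrocytes use this route to turn on cytokine and chemokine genes, though TRAF2 and the cIAP ligases stand there in the place that TRAF6 takes below Toll-like and interleukin-1 receptors.

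The promoters of the 5 genes that were lower in GSTM1 KD (Ube2v1, Map3k7, Tab2, Tab3 and Chuk) are shown first, since these genes moved together in both states. Each run is the RefSeq sequence of 250 bases before to 50 bases after a transcript start in GRCm38.p6, read 5′ to 3′ on the gene's strand. Capitals mark every match, on either strand, to 7 motifs searched: GGGNNTTTC (the NF-κB core), TGACGTCA (cyclic AMP response element), CCGGAAG (ETS), GCGCANGCG (NRF1), GGGCGG (GC box), CCAAT and TATAAA. No matches overlapped in these windows.
Ube2v1, chr2:167631956-167632255, minus strand: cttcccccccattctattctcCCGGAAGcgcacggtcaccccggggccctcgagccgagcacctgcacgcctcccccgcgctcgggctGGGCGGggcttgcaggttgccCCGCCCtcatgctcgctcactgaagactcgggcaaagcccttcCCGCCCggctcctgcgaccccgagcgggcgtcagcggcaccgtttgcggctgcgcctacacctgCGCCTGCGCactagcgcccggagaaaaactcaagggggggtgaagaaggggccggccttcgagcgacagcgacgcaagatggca
Map3k7, chr4:31963857-31964156, plus strand: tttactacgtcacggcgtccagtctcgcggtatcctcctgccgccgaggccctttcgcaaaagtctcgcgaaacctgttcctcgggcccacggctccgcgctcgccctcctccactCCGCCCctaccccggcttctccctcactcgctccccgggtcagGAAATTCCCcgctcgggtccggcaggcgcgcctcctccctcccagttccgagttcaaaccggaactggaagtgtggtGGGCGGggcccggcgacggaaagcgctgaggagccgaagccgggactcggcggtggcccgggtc
Tab2, chr10:7956074-7956373, minus strand: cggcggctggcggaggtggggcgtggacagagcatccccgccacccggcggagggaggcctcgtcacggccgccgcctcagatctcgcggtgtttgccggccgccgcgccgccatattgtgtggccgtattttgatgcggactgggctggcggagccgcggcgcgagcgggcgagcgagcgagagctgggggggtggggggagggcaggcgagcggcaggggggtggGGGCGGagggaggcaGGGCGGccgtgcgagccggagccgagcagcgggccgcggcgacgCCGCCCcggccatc
Tab3, chrX:85573772-85574071, plus strand: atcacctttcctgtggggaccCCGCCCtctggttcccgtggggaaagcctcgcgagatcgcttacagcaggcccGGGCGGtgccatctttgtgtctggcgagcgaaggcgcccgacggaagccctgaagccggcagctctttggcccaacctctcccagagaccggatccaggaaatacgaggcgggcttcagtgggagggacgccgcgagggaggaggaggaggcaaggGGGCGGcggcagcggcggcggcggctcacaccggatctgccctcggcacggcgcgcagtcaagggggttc
Chuk, chr19:44107428-44107727, minus strand: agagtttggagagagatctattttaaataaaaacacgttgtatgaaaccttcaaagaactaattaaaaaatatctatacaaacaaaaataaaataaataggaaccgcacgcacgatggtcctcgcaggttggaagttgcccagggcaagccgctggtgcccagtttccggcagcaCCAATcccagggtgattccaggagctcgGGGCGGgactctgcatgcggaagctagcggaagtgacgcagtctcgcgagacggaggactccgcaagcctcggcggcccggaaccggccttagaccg

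Of these 5 windows, only that of Map3k7 held the NF-κB core, at position 160 from its start on the opposite strand, and 4.36% of 32851 mouse promoters of that length hold it. The window of Ube2v1 held the ETS motif at position 22 and the NRF1 core at position 217, which 8.86% and 6.25% of promoters hold. All 5 windows shown held a GC box, as do 35.7% of promoters, and so did those of Ube2n and Traf6 and 1 of Ikbkg, which did not fall. Of the windows shown, that of Chuk held the CCAAT box, at position 176, against 37.4% of promoters. None of the 5 held TATAAA (13.6% of promoters) or TGACGTCA (1.79%). G and C made up 70.3% of the bases for Ube2v1, 69.0% for Map3k7 and Tab3, 78.0% for Tab2 and 51.7% for Chuk, beside 72.7% for Ube2n and 59.3% for Traf6 and a median of 52.7% over all promoters. These matches describe letters, and no binding was measured. RefSeq promoters were matched by symbol for 8 of the 10 genes, which add Ube2n, Traf6 and Ikbkg, and Tab1 and Ikbkb are named only. Tab2 and Ikbkg had more than 1 start, and the window of Tab2 shown is that at the start of the gene. Its other window held CCAAT at position 124 on the opposite strand and no GC box, with 38.7% G and C. None of the windows of Ube2n, Traf6 and Ikbkg held the NF-κB core, and the ETS motif stood in that of Ube2n and in 1 of Ikbkg.

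In GRCm38 with GENCODE M21, all 10 genes are protein coding and match the files by identifier and version. Ube2v1 lies on the minus strand at chr2:167607638-167632095 and Ube2n on the plus strand at chr10:95515145-95545657. Traf6 lies at chr2:101678429-101701669 (plus). The TAK1 genes are Map3k7 at chr4:31964097-32023467 (plus), Tab1 at chr15:80133127-80161707 (plus), Tab2 at chr10:7905653-7956230 (minus) and Tab3 at chrX:85574022-85634469 (plus). The IKK genes are Chuk at chr19:44073335-44107480 (minus), Ikbkb at chr8:22659212-22706589 (minus) and Ikbkg at chrX:74393290-74453854 (plus). The values are gene totals over all annotated exons.

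The deposited estimated counts summed to 17349676 to 34434633 per library. For Gstm1 the basal control KD libraries held 8153 and 9644 counts against 676 and 626 under GSTM1 KD, and those with TNF-α 4851 and 6492 against 527 and 405, so the labels match the targeted gene. In TMM-scaled counts over a common library total (CPM) this was a log2 change of -3.33 (edgeR adjusted p = 0.0132) and of -3.68 (edgeR adjusted p = 0.00981). All 8 astrocyte markers were detected in these libraries, with Gfap between 920 and 5630 CPM, and the 8 microglial markers summed to at most 7.32 CPM in a library. The control KD replicates differed in astrocyte markers, whose sum was 2650 and 6292 CPM at the basal level and 2865 and 6645 CPM after TNF-α. In bulk RNA, fewer cells of a type and less RNA per cell cannot be told apart.

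Compared per unit of length, in TPM, RSEM's unit scaled by transcript length, the E2 pair stood far above the rest in control KD cells at the basal level. Ube2n was at 279 ± 31.3 TPM (mean ± SD, n = 2 here and below) and Ube2v1 at 250 ± 6.57 TPM, which did not overlap but whose means differed by less than the SD of Ube2n. Tab2 followed at 57.6 ± 8.77, Map3k7 at 36.8 ± 0.0354, Ikbkg at 33.1 ± 2.79 and Chuk at 31.8 ± 0.735 TPM, of which Ikbkg and Chuk overlapped. Tab1 at 15.9 ± 2.23 and Ikbkb at 13.3 ± 0.955 TPM came below, with both Tab1 libraries above both Ikbkb libraries. Tab3 at 9.0 ± 0.467 and Traf6, the ligase, at 7.72 ± 0.170 TPM were the least abundant. In GSTM1 KD cells at the basal level Ube2n was still first, at 296 ± 19.5 TPM, while Ube2v1 stood at 86.9 ± 5.23, Ikbkg at 50.0 ± 2.54 and Tab2 at 32.0 ± 2.04 TPM.

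**Figure D1:**
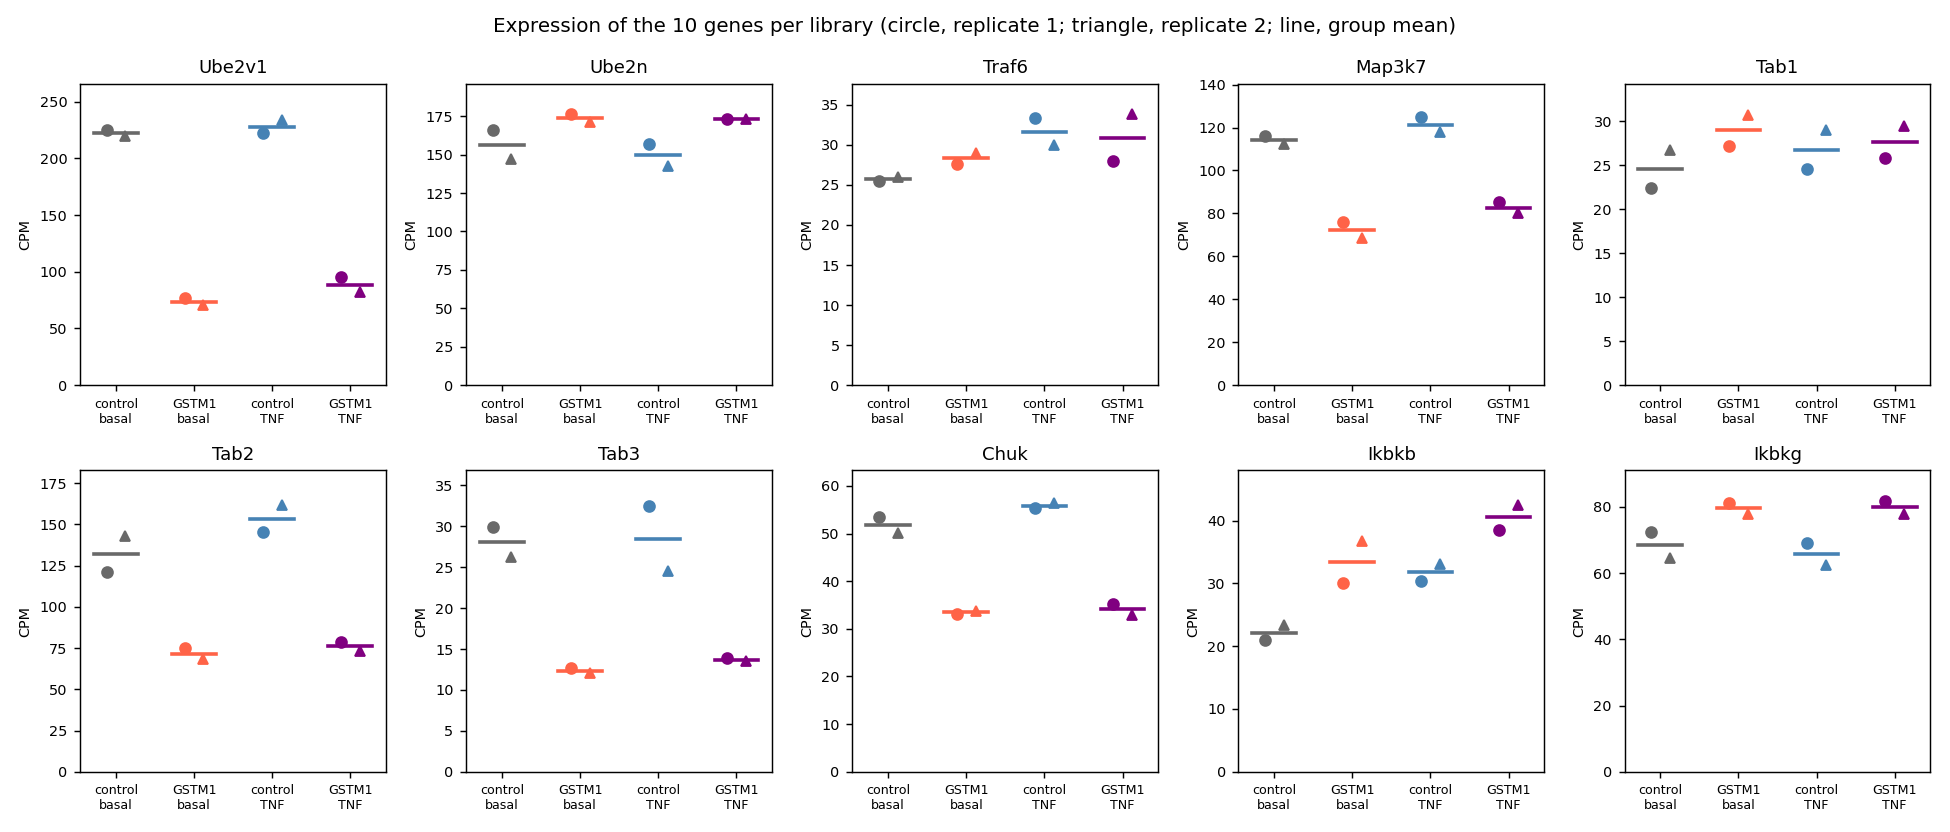
TMM-scaled CPM (y axis, from 0) of each of the 10 genes in the 8 libraries, by group (x axis). Circles and triangles are replicates 1 and 2 and lines are group means. Both GSTM1 KD libraries lie below both control KD libraries in each state for Ube2v1, Map3k7, Tab2, Tab3 and Chuk, and above them for Ube2n, Ikbkb and Ikbkg. Over all genes tested, 31.2% lay below and 32.3% above in this way at the basal level, and 31.9% and 34.7% after TNF-α.

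GSTM1 KD was first compared with control KD at the basal level. Of the 9 partners, 4 fell: Tab3, Tab2, Map3k7 and Chuk. None rose, though whether Ikbkb or Ikbkg passed depended on the fit, as given with those genes. With the replicate number as a block, 5 partners passed, Ikbkb added, and 31.6% of all genes did in place of 10.2%. The remaining 5 (Ube2n, Traf6, Tab1, Ikbkb and Ikbkg) did not pass the test, and each had a higher fitted level in GSTM1 KD. Over all 14899 genes tested, 5.62% were lower and 4.6% higher by the same rule, an adjusted p below 0.05 in edgeR. The median log2 change of the 9 partners was 0.14, beside -0.0020 over all genes.

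After TNF-α stimulation the partners that passed were again Tab2, Tab3, Chuk and Map3k7, all lower, with none higher, where 8.92% of 14593 genes were lower and 7.26% higher. With the block the partners' count was again 4, where 29.5% of all genes passed in place of 16.2%. The median of the 9 partners was -0.063, beside -0.011 over all genes. These calls rested on both GSTM1 KD replicates. Without either one, 0 of the 9 partners passed in that state, and over all genes edgeR then called 1 and 3 at the basal level and 0 and 94 after TNF-α. The 4 partners kept their sign in those fits, with log2 changes from -0.53 to -1.23 and edgeR adjusted p from 0.0734 to 0.288.

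Ube2v1, the chain-type partner of UBC13, held 7959 and 5626 counts in basal control KD libraries against 1784 and 1404 under GSTM1 KD. After TNF-α it had 5166 and 3887 against 2063 and 1423. In CPM this was 222 ± 3.58 against 73.4 ± 4.41 without stimulation and 228 ± 8.02 against 88.5 ± 9.55 with it. Both GSTM1 KD libraries lay well below both control KD libraries in each state. The fitted log2 change was -1.60, 3.03-fold lower, at the basal level, and -1.39, 2.62-fold lower, after TNF-α. It was the most lowered of the 10 genes in both states, as its choice would favour.

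The reads of Ube2v1 are not all its own. It shares 1673 exonic bases on the same strand with Gm20431, an annotated read-through of Tmem189 and Ube2v1, and 54.3% of the distinct 100-base windows of its transcripts occur in other genes. It also shares 208 exonic bases on the opposite strand with Gm11476. The estimated counts of Gm20431 were low, from 76 to 400 per library, and with its counts added to those of Ube2v1 the log2 change was -1.49 without and -1.35 with TNF-α. Tmem189, the upstream neighbour in that read-through, did not pass the test, with log2 changes of 0.22 (edgeR adjusted p = 0.268) and 0.27 (edgeR adjusted p = 0.207).

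Ube2n, the catalytic member of the E2 pair, held 5875 and 3761 counts in basal control KD libraries against 4119 and 3427 under GSTM1 KD, from libraries of different depth. In CPM these were 166 and 147 against 177 and 172, and after TNF-α 157 and 143 against 173 and 173. The GSTM1 KD libraries were slightly above the control KD libraries in each state, and the difference did not pass. The log2 change was 0.15 (95% interval -0.13 to 0.44, edgeR adjusted p = 0.401) at the basal level and 0.19 (interval -0.070 to 0.44, edgeR adjusted p = 0.249) after TNF-α. Of its 100-base windows, 8.23% recur in Ube2n-ps1 and other copies. The other K63 partner, Ube2v2, stood at 39.5 ± 6.16 CPM in basal control KD libraries against 35.7 ± 0.285 CPM under GSTM1 KD, and its log2 change was -0.14 (interval -0.50 to 0.21, edgeR adjusted p = 0.530).

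Set against each other in TPM, Ube2n to Ube2v1 stood at 1.22 and 1.01 under basal control KD and at 3.43 and 3.40 under basal GSTM1 KD. After TNF-α the ratio was 1.18 and 0.976 against 2.81 and 3.46. Ube2v1 exceeded Ube2v2 by 4.42 ± 0.561 times under basal control KD, by 1.58 ± 0.166 times under basal GSTM1 KD, and by 4.43 ± 0.483 and 1.65 ± 0.162 times after TNF-α. Ube2v1 and Ube2v2 together summed to 308 ± 0.813 TPM under basal control KD against 142 ± 2.77 TPM under GSTM1 KD. These ratios carry the difference for which Ube2v1 was picked and were not tested.

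Traf6, the ligase that works with the E2 pair, was at 25.5 and 26.0 CPM under basal control KD against 27.7 and 29.0 CPM under GSTM1 KD. After TNF-α it was at 33.4 and 29.9 CPM against 28.0 and 33.8 CPM, where the groups overlapped. Its log2 change was 0.14 (95% interval -0.16 to 0.44, edgeR adjusted p = 0.468) at the basal level and -0.063 (interval -0.42 to 0.29, edgeR adjusted p = 0.783) after TNF-α.

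Among the TAK1 genes, the kinase and both chain-binding adaptors fell and the chain-independent activator did not pass. Map3k7, the kinase itself, held 4108 and 2875 counts in basal control KD libraries against 1766 and 1368 under GSTM1 KD, or 116 and 112 CPM against 75.8 and 68.5 CPM. After TNF-α it had 125 and 118 CPM against 85.1 and 80.1 CPM. Both GSTM1 KD libraries were lower in each state. The log2 change was -0.66 (SE 0.106, edgeR adjusted p = 0.0263) at the basal level and -0.58 (SE 0.0974, edgeR adjusted p = 0.0223) after TNF-α.

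Tab2, whose protein tethers TAK1 to K63 chains, held 4291 and 3664 counts in basal control KD libraries against 1749 and 1363 under GSTM1 KD, or 121 and 143 CPM against 75.0 and 68.2 CPM. After TNF-α it was at 145 and 161 CPM against 78.8 and 73.1 CPM, a wide gap beside the distance between replicates. It fell 1.85-fold at the basal level (log2 change -0.88, SE 0.127, edgeR adjusted p = 0.0228) and 2.05-fold after TNF-α (log2 change -1.04, SE 0.105, edgeR adjusted p = 0.0109). Tab3, its less abundant relative with the same kind of zinc finger, had 1059 and 672 counts against 296 and 240 without stimulation, or 28.1 ± 2.59 CPM against 12.4 ± 0.482 CPM. After TNF-α Tab3 was at 32.5 and 24.5 CPM against 13.8 and 13.5 CPM. Tab3 fell 2.27-fold at the basal level (log2 change -1.19, SE 0.147, edgeR adjusted p = 0.0192) and 2.13-fold after TNF-α (log2 change -1.09, SE 0.180, edgeR adjusted p = 0.0215), where it and Tab2 differed by less than the SE of either.

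Tab1, which binds and activates TAK1 without a ubiquitin chain, was at 22.4 and 26.7 CPM under basal control KD against 27.2 and 30.7 CPM under GSTM1 KD. After TNF-α it was at 24.6 and 29.0 CPM against 25.8 and 29.4 CPM, with the groups overlapping. The log2 change was 0.24 (95% interval -0.13 to 0.61, edgeR adjusted p = 0.322) and 0.020 (interval -0.33 to 0.37, edgeR adjusted p = 0.935). The ratio of Tab2 to Tab1 in TPM was 3.58 and 3.65 under basal control KD against 1.82 and 1.45 under GSTM1 KD, and 3.89 and 3.63 against 2.07 and 1.64 after TNF-α. Tab2 and Tab3 summed to 66.6 ± 9.24 TPM under basal control KD against 37.0 ± 3.21 TPM under GSTM1 KD, and to 73.1 ± 1.58 and 37.2 ± 1.50 TPM after TNF-α.

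**Figure D2:**
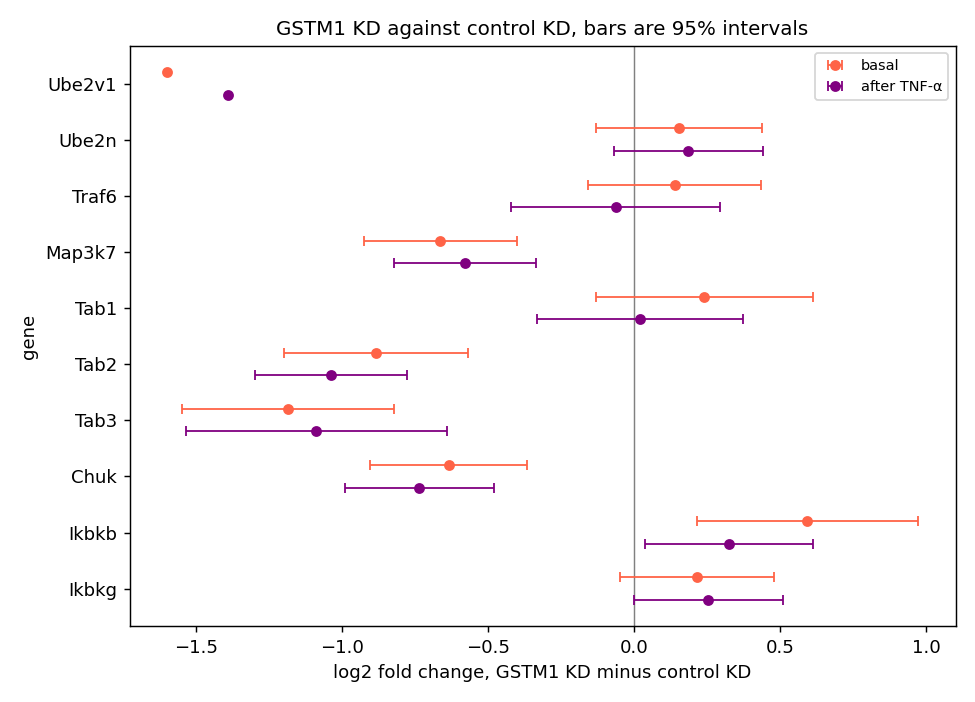
Fitted log2 fold change of GSTM1 KD minus control KD (x axis) for each gene (y axis), basal or with TNF-α. Bars are 95% intervals from the edgeR fit of each state. Ube2v1, which was picked for this difference, is a point with no bar. Map3k7, Tab2, Tab3 and Chuk have intervals below 0 in both states, and the interval of Ikbkb lies above 0 in both, from 0.21 to 0.97 at the basal level.

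In the IKK complex the 3 genes took different courses. Chuk, encoding IKKα, the kinase also used by the noncanonical NF-κB branch, held 1896 and 1284 counts in basal control KD libraries against 770 and 676 under GSTM1 KD, or 53.6 and 50.2 CPM against 33.0 and 33.8 CPM. After TNF-α it was at 55.4 and 56.3 CPM against 35.3 and 33.0 CPM. Chuk fell 1.55-fold at the basal level (log2 change -0.63, SE 0.108, edgeR adjusted p = 0.0290), a call lost with effective lengths as offsets (-0.47, edgeR adjusted p = 0.0633), and 1.67-fold after TNF-α (log2 change -0.74, SE 0.102, edgeR adjusted p = 0.0164).

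Ikbkb, encoding IKKβ, the main IκB kinase of the canonical branch, held 740 and 597 counts in basal control KD libraries against 701 and 733 under GSTM1 KD, or 20.9 and 23.3 CPM against 30.1 and 36.7 CPM. After TNF-α it was at 30.4 and 33.1 CPM against 38.5 and 42.6 CPM. Both GSTM1 KD libraries lay above both control KD libraries in each state. The log2 change was 0.59 (SE 0.153, edgeR adjusted p = 0.0657) at the basal level and 0.33 (SE 0.116, edgeR adjusted p = 0.108) after TNF-α, neither past the threshold. At the basal level the call depended on the fit, while the log2 change stayed between 0.43 and 0.73 over 14 alternatives. With 2 libraries in each group, it passed only with DESeq2, without a filter, with all 8 libraries and with the replicate block (edgeR adjusted p = 0.00497). Those settings called 18.2%, 16%, 18% and 31.6% of all genes, in place of 10.2%.

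Ikbkg, encoding the chain-binding scaffold NEMO, was at 72.3 and 64.6 CPM under basal control KD against 81.1 and 77.9 CPM under GSTM1 KD, and at 68.9 and 62.5 CPM against 81.8 and 77.9 CPM after TNF-α. The log2 change was 0.22 (95% interval -0.050 to 0.48, edgeR adjusted p = 0.228) and 0.25 (interval -0.0014 to 0.51, edgeR adjusted p = 0.140). With effective lengths as offsets the basal change of Ikbkg was 0.54 and passed (edgeR adjusted p = 0.0482). It shares 418 exonic bases on the opposite strand with G6pdx, whose log2 change was 0.29 (edgeR adjusted p = 0.132) and 0.38 (edgeR adjusted p = 0.0902), and with the replicate block edgeR gave G6pdx adjusted p of 0.0444 and 0.0262. The paper names a directional library kit, but whether counting used the strand is not given in the sources used here.

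The ratio of the catalytic subunits differed between the groups by more than the replicates did. Ikbkb to Chuk in TPM was 0.416 ± 0.0204 under basal control KD, 0.866 ± 0.183 under basal GSTM1 KD, and 0.560 ± 0.0470 and 1.04 ± 0.170 after TNF-α. The sum of both was 45.1 ± 1.69, 44.2 ± 2.10, 50.3 ± 0.856 and 45.4 ± 0.453 TPM in the same order, and after TNF-α it was lower in both GSTM1 KD libraries than in both control KD libraries. These ratios and sums were not tested.

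**Figure D3:**
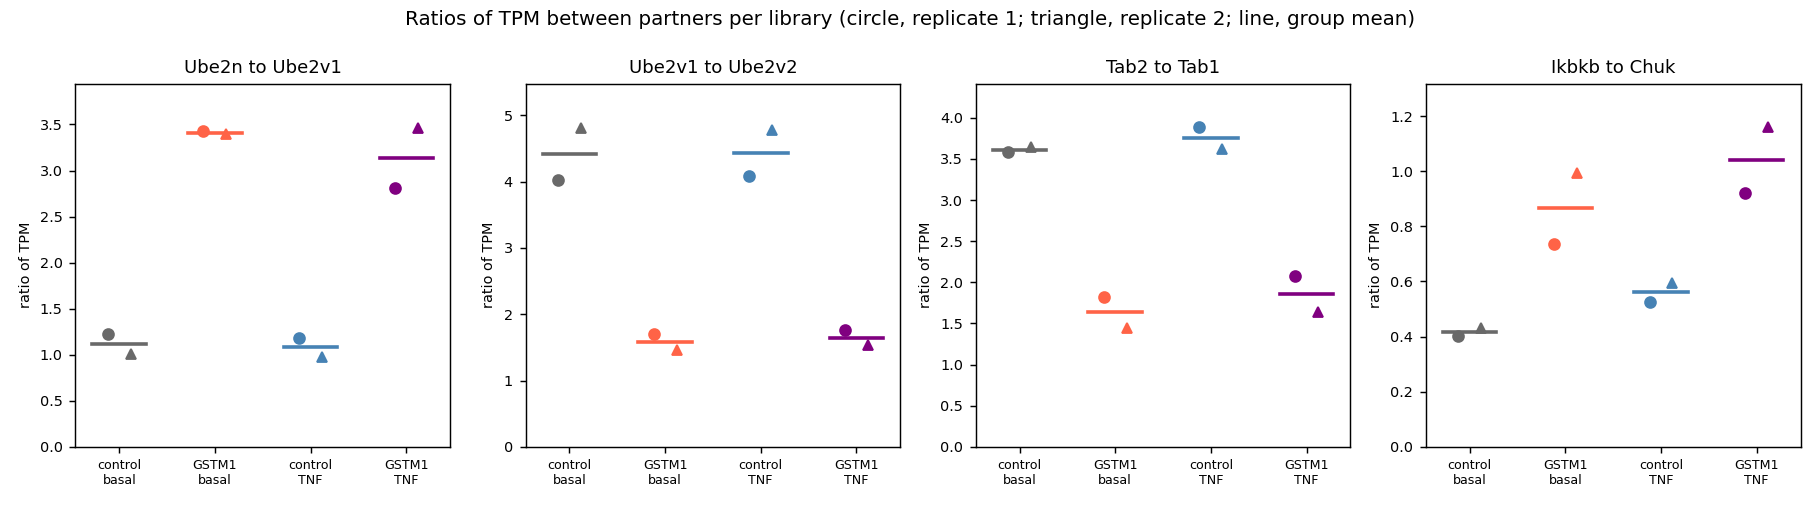
Ratios of TPM (y axis, from 0) between pathway partners in each library, by group (x axis). Circles and triangles are replicates 1 and 2 and lines are group means. Ube2n to Ube2v1 and Ikbkb to Chuk are higher in both GSTM1 KD libraries of each state than in the control KD libraries, and Ube2v1 to Ube2v2 and Tab2 to Tab1 are lower.

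The effective length of a gene in RSEM, the abundance-weighted mean of the effective lengths of its transcripts, differed between groups for some members. For Map3k7 it was 5389 and 5252 bases under basal control KD against 4891 and 4898 under GSTM1 KD, and 5374 and 4920 against 4828 and 4413 after TNF-α. Ikbkg was at 3521 and 3568 bases against 2811 and 2877 at the basal level, but at 3270 and 3217 against 3354 and 3322 after TNF-α. For Chuk the basal values were 2926 and 2668 against 2408 and 2628. Map3k7, Ikbkg and Chuk had shorter estimates in both basal GSTM1 KD libraries, while Ube2v1 stayed between 1482 and 1571 bases in all 8 libraries. Map3k7, Tab2 and Tab3 passed in both states with these lengths as offsets.

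**Figure D4:**
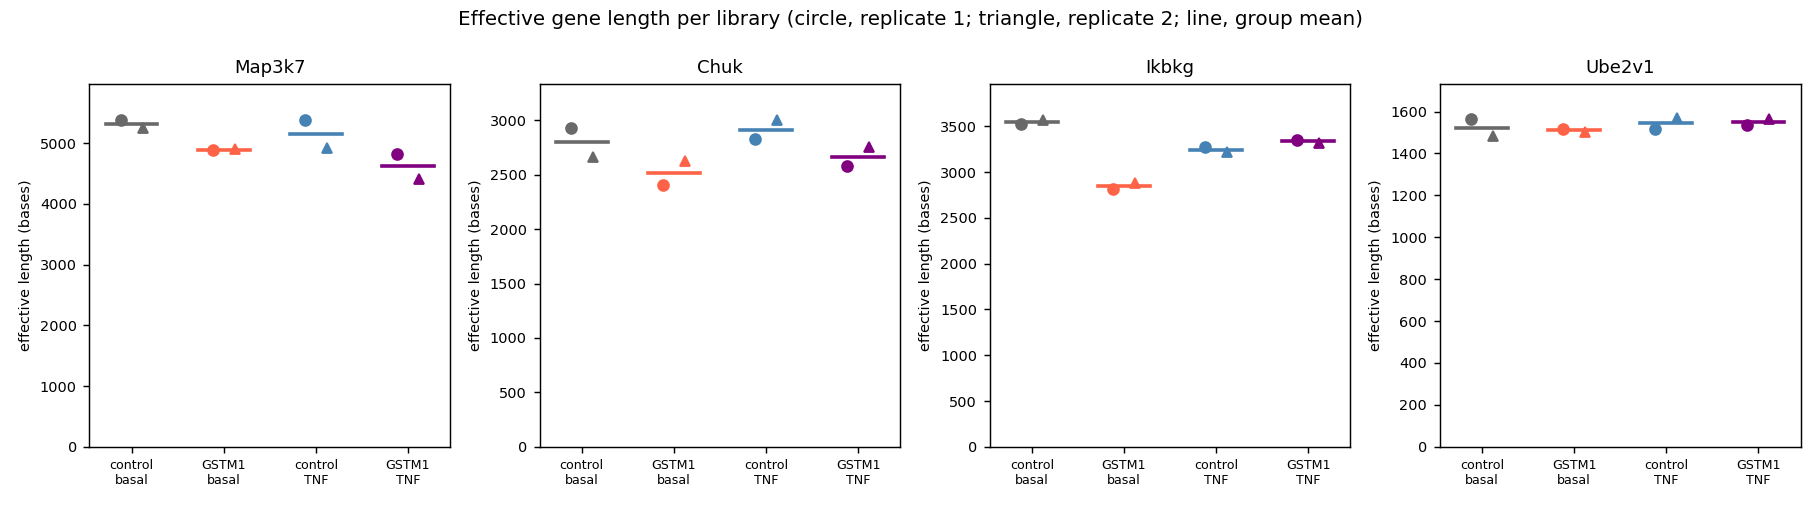
Effective length in bases (y axis, from 0) of 4 members in the 8 libraries, by group (x axis). Circles and triangles are replicates 1 and 2 and lines are group means. The basal GSTM1 KD libraries have shorter estimates for Map3k7, Chuk and Ikbkg, and Ube2v1 is flat across groups.

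The response to TNF-α was compared within control KD and within GSTM1 KD cells. None of the 10 genes passed in either, where 2.63% and 2.65% of 15332 genes did, and at an unadjusted p below 0.05 there were 2 in control KD (Traf6 and Ikbkb) and 1 in GSTM1 KD (Ube2v1), beside 12.5% and 10.9% of all genes. With the replicate block, Ikbkb passed in control KD and no member in GSTM1 KD, where 6.44% and 5.27% of all genes passed. DESeq2 also called 0 of the 10 in each, where it called 4.58% and 3.77% of the genes it tested. The stimulation itself was plain in the targets of the pathway. Nfkbia, the IκBα gene that NF-κB induces as its own brake, stood at 41.8 ± 6.82 CPM before and 416 ± 31.4 CPM after TNF-α under control KD, and at 29.1 ± 4.57 and 406 ± 14.5 CPM under GSTM1 KD, log2 changes of 3.31 (edgeR adjusted p = 0.000239) and 3.81 (edgeR adjusted p = 0.000255). Cxcl1, a neutrophil chemokine, was at 9.41 and 6.21 CPM before and 32.9 and 122 CPM after TNF-α in control KD, a log2 change of 3.30 (edgeR adjusted p = 0.0318). Without stimulated replicate 2 the change was 2.08, without stimulated replicate 1 it was 3.96, and without either basal replicate it did not pass (edgeR adjusted p = 0.0898 and 0.155). The log2 change of Cxcl1 in GSTM1 KD was 2.38 (edgeR adjusted p = 0.165). The difference of this response from that in control KD was -0.92 (interval -2.96 to 1.13, edgeR unadjusted p = 0.326) and did not pass.

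The log2 changes of the 10 genes with TNF-α ran from -0.064 to 0.52 in control KD and from -0.070 to 0.28 in GSTM1 KD. Ikbkb had the highest value in both, 0.52 (95% interval 0.21 to 0.83, edgeR adjusted p = 0.110) and 0.28 (interval -0.028 to 0.59, edgeR adjusted p = 0.535). In control KD, edgeR without the filter on low counts gave Ikbkb an adjusted p of 0.0358, and edgeR with the replicate block 0.0145. Of all genes, 4.74% and 6.44% passed in those settings, in place of 2.63%. Traf6 was at 25.7 ± 0.284 CPM before and 31.7 ± 2.42 CPM after TNF-α in control KD, a log2 change of 0.30 (interval 0.013 to 0.59, edgeR adjusted p = 0.368).

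Ube2v1, whose response to TNF-α played no part in its choice, was at 225 and 220 CPM before and 222 and 234 CPM after stimulation in control KD, and the libraries overlapped. The log2 change was 0.036 (interval -0.20 to 0.27, edgeR adjusted p = 0.980). In GSTM1 KD it was at 76.5 and 70.3 CPM before and 95.2 and 81.7 CPM after, both stimulated libraries above both others, as for 22.4% of all genes, with a log2 change of 0.27 (interval 0.030 to 0.51, edgeR adjusted p = 0.365). Tab2 changed by 0.21 (interval -0.052 to 0.48, edgeR adjusted p = 0.555) in control KD, and Map3k7 by 0.20 (interval -0.010 to 0.40, edgeR adjusted p = 0.497) in GSTM1 KD. The intervals of the other members in both cell groups (Ube2n, Tab1, Tab3, Chuk and Ikbkg) all included 0 and lay between -0.41 and 0.52.

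**Figure D5:**
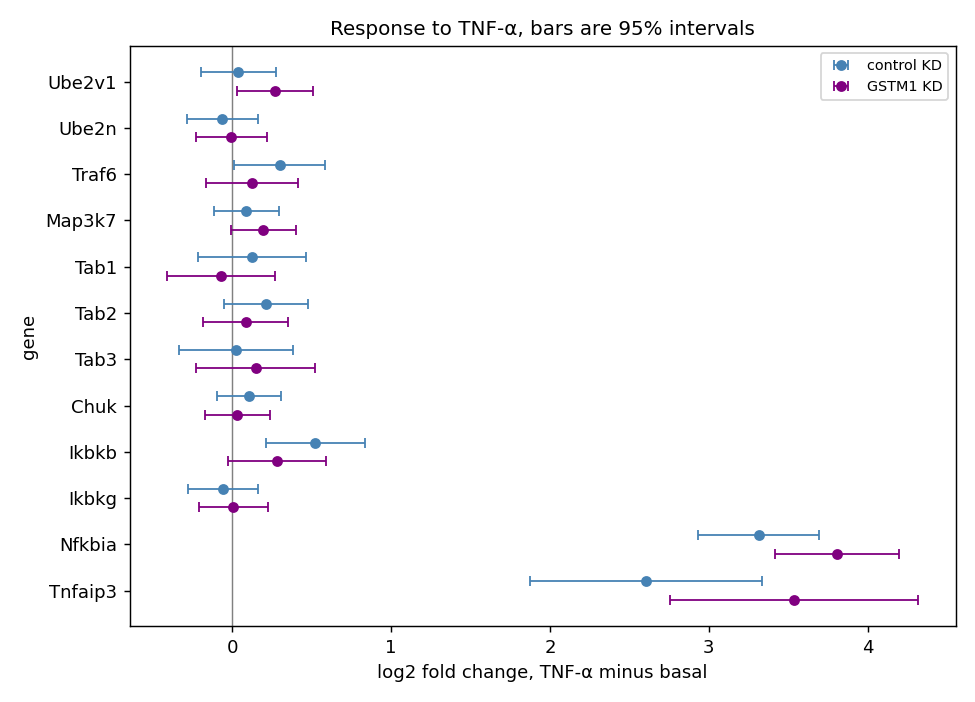
Fitted log2 fold change of TNF-α minus basal (x axis) in control KD and GSTM1 KD cells for the 10 genes and the targets Nfkbia and Tnfaip3 (y axis). Bars are 95% intervals from the edgeR fit of all 8 libraries. The 10 genes lie between -0.070 and 0.52, and Nfkbia lies at 3.31 and 3.81.

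Whether the response to TNF-α differed between GSTM1 KD and control KD was tested by their interaction. None of the 9 partners passed, none had an unadjusted p below 0.05, and DESeq2 called 0 of them, where it called 0.157% of the genes it tested. Over all 15332 genes 0% passed in edgeR, with 295, or 1.92%, at an unadjusted p below 0.05. The differences ran from -0.24 for Ikbkb (95% interval -0.68 to 0.19) to 0.12 for Tab3 (interval -0.39 to 0.64). For Ube2v1, given with no test, the difference was 0.23.

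Other genes of the route were followed in 5 lists. Their counts stand beside 5.62% of all genes lower and 4.6% higher at the basal level and 8.92% and 7.26% after TNF-α, and for the TNF-α responses 2.63% and 2.65% called in control KD and GSTM1 KD. Of 12 other K63 chain enzymes and adaptors, 1 fell and 1 rose in GSTM1 KD in each state, near those shares of all genes. Birc3, the ligase cIAP2, was the one that fell (log2 change -1.64, edgeR adjusted p = 0.0224, and -1.01, edgeR adjusted p = 0.0129), and Traf3, an adaptor that restrains noncanonical NF-κB, rose (1.24, edgeR adjusted p = 0.0192, and 1.07, edgeR adjusted p = 0.0116). The list's median log2 change was -0.19 without and -0.0034 with TNF-α. With TNF-α, Birc3, Birc2 and Traf2, which act at the TNF receptor, rose in both cell groups, Birc3 by 3.08 on the log2 scale in control KD (edgeR adjusted p = 0.000239) and by 3.73 in GSTM1 KD (edgeR adjusted p = 0.000255).

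Of 15 deubiquitinases and ubiquitin editors, 1 fell and 2 rose at the basal level, and 2 fell and 2 rose after TNF-α, with medians of -0.0092 and 0.031 (all genes, 5.62% and 4.6%, then 8.92% and 7.26%). Tnfaip3, encoding A20, the editor that ends TRAF and RIPK1 signals, fell by 1.79 on the log2 scale at the basal level (edgeR adjusted p = 0.0336) and by 0.88 after TNF-α (edgeR adjusted p = 0.0315). Usp25, a deubiquitinase, rose in both states, by 0.53 (edgeR adjusted p = 0.0372) and 0.73 (edgeR adjusted p = 0.0161), and Spata2, which links CYLD to the receptor complex, rose by 0.54 (edgeR adjusted p = 0.0439) at the basal level. After TNF-α Cyld, which removes K63 and linear chains, rose by 0.67 (edgeR adjusted p = 0.0258), and Tnip1, an A20-binding protein, fell by 0.58 (edgeR adjusted p = 0.0205). With TNF-α itself, Tnip1 and Tnfaip3 rose in both cell groups.

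Of 12 receptor complex and linear chain genes, 4 fell without and 3 with TNF-α, and none rose, with medians of -0.46 and -0.39, where 5.62% and 8.92% of all genes fell. With effective lengths as offsets, Ripk1 was the 1 gene of these 4 that kept its basal call, and Otulin, Sharpin and Rnf31 lost it (edgeR adjusted p from 0.0504 to 0.0697). Ripk1, the kinase that carries chains at the TNF receptor, fell by 0.88 (edgeR adjusted p = 0.0183) and 0.77 (edgeR adjusted p = 0.0131) on the log2 scale. Otulin, which trims linear chains, fell by 0.66 (edgeR adjusted p = 0.0436) and 0.81 (edgeR adjusted p = 0.0279), and Sharpin, a subunit of the linear chain ligase, by 0.66 (edgeR adjusted p = 0.0453) and 0.60 (edgeR adjusted p = 0.0376). Rnf31, the catalytic subunit of that ligase, was the fourth at the basal level (-0.63, edgeR adjusted p = 0.0453) and lies outside the rule for naming genes, which stops at 3 genes of a list in each comparison. Tifa and Myd88, adaptors of TRAF6, rose with TNF-α in both cell groups.

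Of 9 TAK1 phosphatases and kinases downstream, 1 fell and 2 rose in each state, with medians of 0.29 and 0.23, against 4.6% and 7.26% of all genes that rose. Map2k3, a kinase of the p38 branch, fell by 1.06 (edgeR adjusted p = 0.0249) and 1.3 (edgeR adjusted p = 0.0122) on the log2 scale. Map2k4, a kinase of the JNK branch, rose by 0.86 (edgeR adjusted p = 0.0178) and 0.80 (edgeR adjusted p = 0.0129), and Dusp14, a phosphatase that acts on TAB1 and TAK1, by 0.91 (edgeR adjusted p = 0.0363) and 1.13 (edgeR adjusted p = 0.0134). With TNF-α, Dusp14 fell in control KD by 0.99 (edgeR adjusted p = 0.0238), a call that held in 1 of 4 fits with a replicate left out, and its log2 change in GSTM1 KD was -0.75 (edgeR adjusted p = 0.0588). Their difference did not pass (0.24), and no gene of the list passed in GSTM1 KD.

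Of 19 IKK chaperones, relatives and substrates, 1 fell and 1 rose in each state, with medians of -0.019 and -0.062, a share near or below that of all genes (5.62% and 4.6%, then 8.92% and 7.26%). Rela, the main activating NF-κB subunit, fell by 0.61 (edgeR adjusted p = 0.0270) and 0.76 (edgeR adjusted p = 0.0152) on the log2 scale, and Nkiras2, which binds IκB proteins, rose by 1.12 (edgeR adjusted p = 0.0161) and 1.23 (edgeR adjusted p = 0.0105). With TNF-α, 9 of the 19 rose under control KD, 8 rose under GSTM1 KD and none fell, with medians of 0.63 and 0.51, where 2.63% and 2.65% of all genes were called in either direction. Nfkbie, encoding IκBε, rose by 3.94 (edgeR adjusted p = 0.000121) and 4.0 (edgeR adjusted p = 0.000125). In none of the 5 lists did a gene pass the interaction test. Among list genes and cell type markers, 18 were called between GSTM1 KD and control KD without stimulation and 20 with it. As for the partners, these calls were lost with either GSTM1 KD replicate of that state left out, where the control KD pair alone set the spread. Of 19 list genes, markers and targets called with TNF-α in control KD, 10 to 15 passed when a replicate was left out and 7 when only the 4 control KD libraries were fitted, and of 16 in GSTM1 KD, 6 to 11 passed with a replicate left out. Without a replicate, Tifa passed in no such fit of either cell group and Traf2, Nfkb1, Rela and Olig2 in none in GSTM1 KD, while Nfkbia, Nfkbie and Birc3 passed in all.

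Markers of cell types moved beside these results. The 8 fibroblast and vascular markers summed to 3608 to 3881 CPM under basal control KD against 1816 to 2049 CPM under GSTM1 KD, and to 3002 to 3200 against 1618 to 1809 CPM after TNF-α. Of the 5 tested, Acta2 (1330 to 3580 CPM, most of that sum) and Col1a2 were lower in both states and Pdgfrb was higher after TNF-α. Cldn5 was at 0 in every library. The astrocyte sum was 5651 and 8645 CPM under basal GSTM1 KD and 5958 and 8591 CPM after TNF-α, overlapping control KD. S100b, the least abundant of the 8 (1.95 to 10.1 CPM), alone passed, lower in both states. The median log2 change of the 8 was 0.515 without and 0.28 with TNF-α. Gfap, Aldoc, Aldh1l1, Slc1a2 and Gja1 had higher fitted levels in both states and Aqp4 lower, none past the threshold. The sign for Slc1a3 differed between states. Whether these markers pass with the replicate block was not followed. The oligodendrocyte lineage sum was 659 to 742 CPM under basal control KD against 524 to 535 CPM under GSTM1 KD, and 577 to 650 against 466 to 472 CPM after TNF-α, with Mog at 0 in 3 groups, and 1 and 2 of 6 tested markers were lower, of which Olig1 after TNF-α stood at the threshold (edgeR adjusted p = 0.0497) and was lost under 4 other settings.

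Neuron markers summed to 416 to 422 CPM under basal control KD against 452 to 502 CPM under GSTM1 KD, and to 390 to 393 against 421 to 475 CPM after TNF-α, with Snap25 at 0 in both GSTM1 KD groups. Most of that sum was Map2 (219 to 287 CPM), Stmn2 (86.7 to 129 CPM) and Tubb3 (66 to 86.5 CPM). Rbfox3, Snap25 and Syt1 reached at most 0.517, 0.0861 and 1.26 CPM in any library. Ependymal and choroid plexus markers summed to 105 to 162 against 129 to 142 CPM without and 91.1 to 106 against 118 to 131 CPM with stimulation, nearly all of it Foxj1. Microglial markers summed to 2.66 to 7.07 CPM under basal control KD against 1.20 to 2.23 CPM under GSTM1 KD, and to 2.11 to 7.32 against 1.78 to 3.51 CPM after TNF-α, with P2ry12 or Aif1 at 0 in 3 groups, and no marker of these 3 lists passed in either state. The part of these markers in the lower levels of Ube2v1, Map3k7, Tab2, Tab3 and Chuk was not tested.

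Over the 8 libraries, the profiles of the 4 partners that fell ran close to that of Ube2v1. Pearson's r of log2(CPM + 1) with Ube2v1 was 0.987 for Chuk, 0.985 for Map3k7, 0.977 for Tab2 and 0.974 for Tab3, and it was -0.877 for Ikbkg, -0.829 for Ube2n, -0.673 for Ikbkb, -0.558 for Tab1 and -0.172 for Traf6. The points share libraries and groups, so r mostly follows the split of GSTM1 KD from control KD and is given as a description. The 5 genes with the highest r among all tested were Rac1 (0.998), Mtpn (0.998), Arpc5 (0.997), Ccdc6 (0.997) and Clint1 (0.996). Rac1, for one, stood at mean levels of 468 and 253 CPM in basal control KD and GSTM1 KD, and of 470 and 273 CPM with TNF-α.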

How the data were processed

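RNA-seq of 8 libraries, 2 in each of 4 groups, was mapped by the authors to GRCm38 with STAR (version 2.5.4b) and quantified with RSEM (version 1.3.0), with names and versions from the submitters' processing notes. The deposited expected counts are the authors' RSEM estimates per gene and are not normalized. The deposited TPM values were scaled by the authors' RSEM run to a fixed total per library and by length, and served for ratios and for levels between genes. The deposited FPKM values were not used. The deposited effective lengths, in bases, can differ between libraries.

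Expected counts were rounded and tested with edgeR (version 4.0.16, R version 4.3.3): TMM factors, filterByExpr by group, the quasi-likelihood F-test and Benjamini-Hochberg adjustment at 0.05 over all genes. GSTM1 KD and control KD were compared on the 4 libraries of each state, and TNF-α responses and their interaction on all 8. Replicate numbers are shared between groups. The labels do not say what a number marks, but deviations of same-numbered libraries from their group means correlated at 0.248 to 0.731 over all 6 pairs of groups, so the fit with the number as a block is given where it changes a call. The test was tried on simulated counts with known changes, but the outcome is not given here and no result rests on it. The number of libraries and a depth of 17349676 to 34434633 counts limit precision, and p-values measure the spread between replicates. A total of 3 counts was taken as the floor, and all members were above it and passed the filter.

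The members and lists were chosen with earlier results of these data known. Genes named are the members, Gstm1, the TNF-α targets, genes that overlap a member or share its chain or reads, per comparison at most 3 genes a list with the smallest p among those past the threshold, cell type markers, and the 5 genes with the highest Pearson's r with Ube2v1. Alternatives were DESeq2 (version 1.42.0), other scalings, filters and libraries, edgeR's newer quasi-likelihood method, effective length offsets, a replicate block, leaving out each replicate and, chosen after seeing the data, counts summed over genes that share sequence. Figures used matplotlib (version 3.10.9, Python version 3.11.15).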

Additional observations from a re-analysis of the deposited data

How the results depend on the processing

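The direction of Ube2v1, Map3k7, Tab2, Tab3 and Chuk in GSTM1 KD was the same in all 14 alternatives in each state, with Ube2v1 from -1.66 to -1.49 at the basal level and from -1.50 to -1.28 after TNF-α. The count of 4 partners past the threshold ran from 0 to 5 at the basal level and from 0 to 4 after TNF-α when each replicate was left out, with 0 where a GSTM1 KD replicate was left out. That leaves 1 library, assumed to vary like the other group. The fifth was Ikbkb, which passed at the basal level also with DESeq2 (adjusted p = 0.0338), without a filter (0.0117) and with all 8 libraries (0.0244). With the number as a replicate block, 5 partners passed at the basal level (Ikbkb added, adjusted p = 0.00497) and 4 after TNF-α, 31.6% and 29.5% of all genes passed in place of 10.2% and 16.2%, and TNF-α responses gave 1 member in control KD (Ikbkb, adjusted p = 0.0145) and 0 in GSTM1 KD. All list genes, markers and targets that passed without the block passed with it, and gains among those that had not passed were followed only for the members, Ube2v2, Tmem189, G6pdx and Cxcl1. No filter also gave 1 in control KD, Ikbkb, where 4.74% of all genes passed in place of 2.63%. The interaction gave 0 under every alternative. Of the list genes, Spata2 also lost the basal call with effective length offsets, Sharpin and Rnf31 with library size alone, Rnf31 with all 8 libraries, Tnfaip3 the call after TNF-α with all 8 libraries, and Rela its TNF-α response in GSTM1 KD with library size alone. Olig1 after TNF-α was lost with DESeq2's size factors, library size alone, at least 10 counts in every library and effective length offsets. For Ube2v2 after TNF-α, the log2 change of GSTM1 KD against control KD was -0.043 (edgeR adjusted p = 0.821). That change was 0.042 with effective length offsets and ran from -0.12 to 0.040 with a replicate left out. Its basal change ran from -0.30 to 0.024 with a replicate left out. Small differences changed sign without passing. With effective length offsets Tab1 after TNF-α was -0.0086, the response in control KD was -0.13 for Tab3 and 0.063 for Ikbkg, that in GSTM1 KD was 0.10 for Ube2n, -0.21 for Tab3, -0.047 for Chuk and -0.22 for Ikbkg, and the interaction was -0.080 for Tab3 and -0.28 for Ikbkg. With library size alone the response was -0.0062 for Tab3 in control KD and -0.015 for Chuk and -0.040 for Ikbkg in GSTM1 KD. Without a filter it was -0.0034 for Tab3 in control KD and -0.0084 for Ikbkg in GSTM1 KD. The latter was -0.0017 with DESeq2, -0.0021 with its size factors in edgeR and -0.0020 with at least 10 counts in every library. Leaving out replicates, the change after TNF-α ran from -0.20 to 0.080 for Traf6 and from -0.092 to 0.14 for Tab1. The response in control KD ran from -0.14 to 0.028 for Ube2n, from -0.13 to 0.026 for Ikbkg and from -0.20 to 0.22 for Tab3. That in GSTM1 KD ran from -0.026 to 0.018 for Ube2n, from -0.16 to 0.023 for Tab1, from -0.032 to 0.044 for Ikbkg, from -0.022 to 0.080 for Chuk and from -0.016 to 0.25 for Traf6. The interaction ran from -0.035 to 0.13 for Ube2n, from -0.021 to 0.14 for Ikbkg and from -0.077 to 0.35 for Tab3. The cause was not tested.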
